A study of Homo sapiens with 2 samples.

Results

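Integrins are the cell's receptors for the extracellular matrix, and each is a pair of an alpha and a beta chain; the alpha chain sets most of the choice of ligand and the beta chain links to the actin or keratin skeleton. Laminins are the cross-shaped trimers of an alpha, a beta and a gamma chain that build the basement membrane, and a trimer is named by the numbers of its chains. In breast epithelium, luminal cells face the duct while basal and myoepithelial cells sit on the basement membrane and bind its laminins and collagens. Integrin chains reach the cell surface as pairs and laminin chains are mostly secreted as trimers, so the partners transcribed together limit which complexes a line can make.

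The genes described here are 36 integrin and laminin subunits, of 36601 genes in the deposited matrix. They were taken by symbol from the list of genes in that matrix, and comprise 17 integrin alpha, 8 integrin beta and 11 laminin genes; ITGA6, which completes 2 of the complexes, is given beside them. The study profiled 6 human breast cancer cell lines by single-cell RNA sequencing with a droplet-based 3′ kit, after marking each line with its own oligo and mixing the lines into 2 pools. The labels name no treatment. BT-474 and MDA-MB-453 are luminal lines; MDA-MB-231, MDA-MB-436 and Hs578T are triple-negative lines of mesenchymal type, and HCC38 is a triple-negative basal line. BT-474, MDA-MB-453 and MDA-MB-231 shared a pool and a capture, and HCC38, MDA-MB-436 and Hs578T the other. Each line was 1 culture, so no test between lines was possible, and every interval below is a 95% interval that covers counting error only.

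The cells fall into 6 groups by the suffix of their barcode, and the pairing of oligos with lines is not in the labels. Each group was therefore named after the line whose markers it led, which gave 8 of 8 markers for BT-474, 4 of 8 for MDA-MB-453, 5 of 8 for MDA-MB-231, 6 of 8 for HCC38, 5 of 5 for MDA-MB-436 and 8 of 8 for Hs578T. The BT-474-like group also led ALOX15B of the MDA-MB-453 list, and the Hs578T-like group led KRT17 and KRT14 of the HCC38 list. RB1 was at 4.18 CPM (UMI counts scaled to a common total per group) in MDA-MB-436-like cells and at 33.0 to 83.3 CPM elsewhere. After leaving out barcodes with more than 20% mitochondrial UMIs and 436 mixed cells, 15102 cells remained, 1868 to 3382 per group, with 69015752 to 89041351 UMIs per group and medians of 20218 to 37931 UMIs per cell. Mitochondrial UMIs had a median share of 14.59% in BT-474-like cells and 9.85% in MDA-MB-453-like cells, against 5.85% to 7.44% in the other 4. Between the captures, 22 barcode sequences occurred in both, and 0 occurred more than once within a capture. Of 10 leukocyte, platelet and endothelial markers, only CD68 reached 10 CPM in any group, and PTPRC, which encodes the pan-leukocyte antigen CD45, was at 0.08 CPM or less in every group.

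In this 3′ assay a molecule is counted once whatever the transcript's length, so CPM was set side by side between genes without a length correction. How fully each gene's transcripts are captured and counted was not measured and may differ between genes. CPM measures transcript and not protein at the surface. A gene counts as measured where it reached 10 CPM in at least 1 group, which 10931 genes did. By this rule 22 of the 36 subunits were measured, 14 of 25 integrins and 8 of 11 laminins. The 14 others included ITGB2 and its 4 leukocyte alpha partners. ITGA10, a collagen receptor chain of cartilage, reached 7.22 CPM in Hs578T-like cells, LAMA2, the laminin chain of muscle, 5.49 CPM in HCC38-like cells, ITGB2, the beta chain of leukocyte integrins, 3.17 CPM in HCC38-like cells, and ITGB3, the beta chain of the platelet receptor, 2.94 CPM in Hs578T-like cells. LAMC3 and ITGAX peaked at 1.19 and 1.16 CPM in MDA-MB-436-like cells, and ITGA7, ITGAM, ITGA2B, ITGB7, LAMB4, ITGAL, ITGA9 and ITGAD stayed below 1 CPM in all groups.

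The number of subunits at 10 CPM or more was 9 in BT-474-like cells and 8 in MDA-MB-453-like cells, against 13 in MDA-MB-231-like cells, 17 in HCC38-like cells, 15 in MDA-MB-436-like cells and 16 in Hs578T-like cells, each of 22. Of all measured genes, 70.7% in BT-474-like cells and 72.9% in MDA-MB-453-like cells passed the same level, against 73.6%, 77.4%, 74.4% and 75.1% in the MDA-MB-231-like, HCC38-like, MDA-MB-436-like and Hs578T-like groups. The share among subunits was thus close to the background in the HCC38-like, MDA-MB-436-like and Hs578T-like groups. It was furthest below the background in both luminal groups, and next in the MDA-MB-231-like group. Neither luminal group held the highest level of any of the 22 subunits, where 11.7% of all measured genes were highest in BT-474-like cells and 19.6% in MDA-MB-453-like cells. The Hs578T-like group was highest for 9 subunits (background 15.5%), the HCC38-like for 6 (20.2%), the MDA-MB-231-like for 5 (13.2%) and the MDA-MB-436-like for 2 (19.8%).

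**Figure D1:**
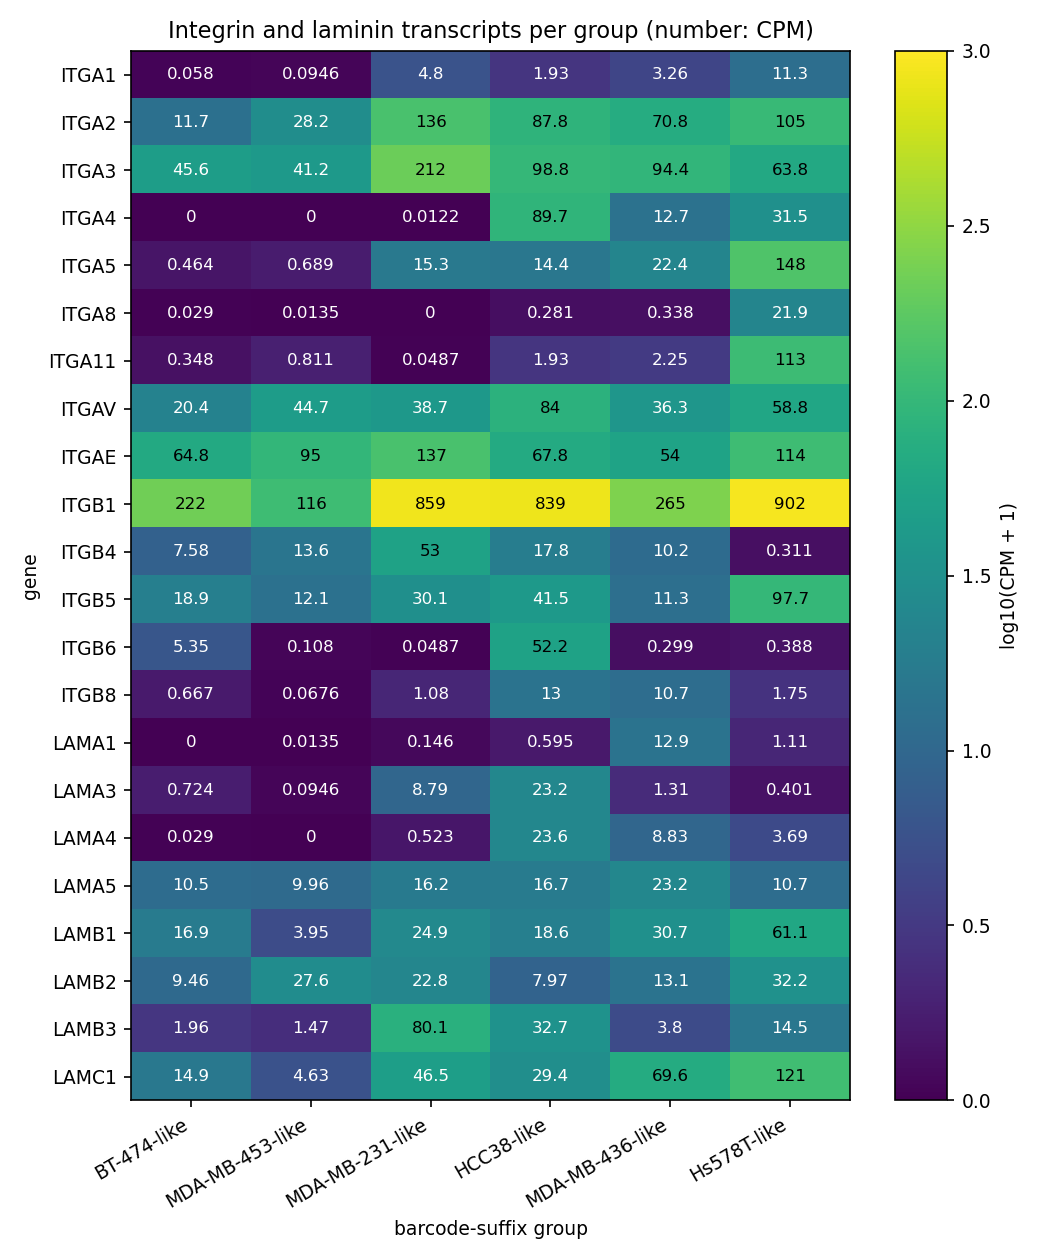
Level of each of the 22 measured subunits (rows) in the 6 barcode-suffix groups (columns, luminal groups at the left); the colour is log10(CPM + 1) and the number is the CPM. ITGB1 is the most abundant subunit in every group, and ITGA4, ITGA8, ITGA11, ITGB6 and LAMA1 are near 0 in several.

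ITGB1, the beta chain shared by most matrix receptors, was the most abundant subunit in every group. It was at 902 CPM in Hs578T-like cells (interval 895 to 909), 859 CPM in MDA-MB-231-like cells (852 to 865) and 839 CPM in HCC38-like cells (833 to 845). It was at 265 CPM in MDA-MB-436-like cells, 222 CPM in BT-474-like cells and 116 CPM in MDA-MB-453-like cells. The groups thus fell into 3 high and 3 low, and the MDA-MB-436-like group lay with the luminal groups. Summed over the alpha subunits of the list, without ITGA6, the level was 144 CPM in BT-474-like cells and 212.9 CPM in MDA-MB-453-like cells, against 545, 449, 301 and 676 CPM in the MDA-MB-231-like, HCC38-like, MDA-MB-436-like and Hs578T-like groups. In the MDA-MB-436-like group the sums of the list's alpha and beta chains were almost equal, at 301 and 297 CPM. ITGA6, left out of that alpha sum, was at 69.4 CPM there, so the near equality depends on the list.

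The collagen receptors pair ITGB1 with ITGA1, ITGA2, ITGA10 or ITGA11, and ITGA2 alone of these was at 10 CPM or more in every group. ITGA2 (chromosome 5, 52989326 to 53094779, plus strand) was at 136 CPM in MDA-MB-231-like cells, 105 CPM in Hs578T-like cells, 87.8 CPM in HCC38-like cells and 70.8 CPM in MDA-MB-436-like cells. In the luminal groups it was at 11.7 CPM (BT-474-like) and 28.2 CPM (MDA-MB-453-like), so these did not overlap the other 4. ITGA11 (chromosome 15, 68296533 to 68432162, minus strand), the fibroblast receptor for fibrillar collagen, was at 113 CPM in Hs578T-like cells, against 2.25 CPM in the next, the MDA-MB-436-like group, a ratio of 50.5 (43.5 to 59.1). ITGA1, a collagen receptor chain of smooth muscle and stroma, was at 11.3 CPM in Hs578T-like cells, 4.80 CPM in MDA-MB-231-like cells, 3.26 CPM in MDA-MB-436-like cells and 1.93 CPM in HCC38-like cells, and below 0.1 CPM in the luminal groups. ITGA1 shares exon sequence on the same strand with PELO, so UMIs of the 2 genes may have been split or dropped.

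The laminin receptors showed the reverse order for the Hs578T-like group. ITGA3, which binds laminins with ITGB1, was at 212 CPM in MDA-MB-231-like cells, 98.8 CPM in HCC38-like cells, 94.4 CPM in MDA-MB-436-like cells and 63.8 CPM in Hs578T-like cells, and at 45.6 CPM in BT-474-like cells and 41.2 CPM in MDA-MB-453-like cells. ITGA6, the alpha chain of hemidesmosomes, was at 247 CPM in MDA-MB-231-like cells, 69.4 CPM in MDA-MB-436-like cells, 60.2 CPM in HCC38-like cells, 54.1 CPM in MDA-MB-453-like cells and 12.6 CPM in BT-474-like cells, and lowest in Hs578T-like cells at 8.61 CPM. ITGB4, its partner in hemidesmosomes, was at 53.0 CPM in MDA-MB-231-like cells, 17.8 CPM in HCC38-like cells, 13.6 CPM in MDA-MB-453-like cells, 10.2 CPM in MDA-MB-436-like cells and 7.58 CPM in BT-474-like cells, and at 0.31 CPM in Hs578T-like cells. Both hemidesmosome chains were therefore lowest in the group with the highest ITGA5 and ITGA11.

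ITGA5 (chromosome 12, 54395261 to 54419460, minus strand) encodes the fibronectin receptor chain. It was at 148 CPM in Hs578T-like cells, against 22.4 CPM in MDA-MB-436-like cells, the next, a ratio of 6.61 (6.28 to 6.95). The MDA-MB-231-like and HCC38-like groups were at 15.3 and 14.4 CPM, BT-474-like cells at 0.46 CPM and MDA-MB-453-like cells at 0.69 CPM. ITGA8, a receptor chain for nephronectin and fibronectin, was at 21.9 CPM in Hs578T-like cells and at 0.34 CPM or less in all others, a ratio to the next of 65.0 (44.2 to 99.7). Both genes were thus far higher in Hs578T-like cells than in its capture mates.

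ITGAV, the alpha chain of the vitronectin receptors and of the integrins that activate latent TGF-beta, reached 10 CPM in every group. It was at 84.0 CPM in HCC38-like cells, 58.8 CPM in Hs578T-like cells, 44.7 CPM in MDA-MB-453-like cells, 38.7 CPM in MDA-MB-231-like cells, 36.3 CPM in MDA-MB-436-like cells and 20.4 CPM in BT-474-like cells, so its range was narrower than that of its measured beta partners. Of these partners, ITGB5 was at 97.7 CPM in Hs578T-like cells, 41.5 CPM in HCC38-like cells, 30.1 CPM in MDA-MB-231-like cells, 18.9 CPM in BT-474-like cells, 12.1 CPM in MDA-MB-453-like cells and 11.3 CPM in MDA-MB-436-like cells. ITGB6 (chromosome 2, 160099666 to 160200313, minus strand), the epithelial partner, was at 52.2 CPM in HCC38-like cells, against 5.35 CPM in BT-474-like cells, a ratio of 9.76 (8.78 to 10.9), and at 0.39 CPM or less in the other 4. ITGB8, whose chain with ITGAV binds latent TGF-beta, was at 13.0 CPM in HCC38-like cells and 10.7 CPM in MDA-MB-436-like cells and at 1.75 CPM or less elsewhere. ITGB6 shares exon sequence on its strand with the uncharacterised gene AC092153.1.

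ITGA4, the chain that binds VCAM-1 and fibronectin and is best known from leukocytes, was at 89.7 CPM in HCC38-like cells, 31.5 CPM in Hs578T-like cells and 12.7 CPM in MDA-MB-436-like cells. In the capture of the luminal lines it was at 0.01 CPM in MDA-MB-231-like cells and at 0 UMIs in both luminal groups. A count of 0 allows up to 3 UMIs, or 0.0435 CPM in BT-474-like cells and 0.0405 CPM in MDA-MB-453-like cells, and the HCC38-like level was at least 2214-fold above the MDA-MB-453-like limit. ITGA4 thus separated the captures as well as the lines. ITGAE, whose only known partner is ITGB7, was at 137 CPM in MDA-MB-231-like cells, 114 CPM in Hs578T-like cells, 95.0 CPM in MDA-MB-453-like cells, 67.8 CPM in HCC38-like cells, 64.8 CPM in BT-474-like cells and 54.0 CPM in MDA-MB-436-like cells. ITGB7 was at 0.36 CPM or less in every group, so the pair was counted in none of them. ITGAE overlaps exons of HASPIN on the opposite strand, and whether the counting used strand is not given in the sources used here.

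Among the laminins, LAMC1, the gamma chain of most trimers, was at 120.6 CPM in Hs578T-like cells, 69.6 CPM in MDA-MB-436-like cells, 46.5 CPM in MDA-MB-231-like cells and 29.4 CPM in HCC38-like cells, and at 14.9 CPM in BT-474-like cells and 4.63 CPM in MDA-MB-453-like cells. LAMB1, the widespread beta chain, followed a like order, with 61.1 CPM in Hs578T-like cells, 30.7 CPM in MDA-MB-436-like cells, 24.9 CPM in MDA-MB-231-like cells, 18.6 CPM in HCC38-like cells, 16.9 CPM in BT-474-like cells and 3.95 CPM in MDA-MB-453-like cells. LAMB2, the beta chain of synapse and kidney basement membrane, did not. It was at 32.2 CPM in Hs578T-like cells and 27.6 CPM in MDA-MB-453-like cells, 22.8 CPM in MDA-MB-231-like cells, 13.1 CPM in MDA-MB-436-like cells, 9.46 CPM in BT-474-like cells and 7.97 CPM in HCC38-like cells. The MDA-MB-453-like group, which was low in LAMB1 and LAMC1, was thus near the top for LAMB2.

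Of the measured laminin alpha chains, LAMA5, the broad epithelial chain, had the narrowest range. It was at 23.2 CPM in MDA-MB-436-like cells, 16.7 CPM in HCC38-like cells, 16.2 CPM in MDA-MB-231-like cells, 10.7 CPM in Hs578T-like cells, 10.5 CPM in BT-474-like cells and 9.96 CPM in MDA-MB-453-like cells. LAMA4, the chain of vessels and mesenchyme, was at 23.6 CPM in HCC38-like cells, 8.83 CPM in MDA-MB-436-like cells and 3.69 CPM in Hs578T-like cells, and at 0.52 CPM or less in the 3 groups of the other capture. LAMA1 (chromosome 18, 6941744 to 7117814, minus strand), the chain of embryonic basement membrane, was at 12.9 CPM in MDA-MB-436-like cells, against 1.11 CPM in Hs578T-like cells, a ratio of 11.6 (9.30 to 14.6). LAMA3 and LAMB3, an alpha and a beta chain of epidermal laminin, peaked in different groups. LAMA3 was at 23.2 CPM in HCC38-like cells, 8.79 CPM in MDA-MB-231-like cells and at most 1.31 CPM in the other groups, and LAMB3 was at 80.1 CPM in MDA-MB-231-like cells, 32.7 CPM in HCC38-like cells, 14.5 CPM in Hs578T-like cells, 3.80 CPM in MDA-MB-436-like cells, 1.96 CPM in BT-474-like cells and 1.47 CPM in MDA-MB-453-like cells.

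Promoter windows are shown for 3 subunits: ITGA5, with the largest deficit in the luminal groups, and LAMA3 and LAMB3, the epidermal laminin chains. They are also the subunits with a match to the motif marked below, so they do not stand for the others. RefSeq windows (GRCh38.p14, 250 bases before to 50 after a start) were available for 25 of the 36 subunits. The capitals mark the AP-1 motif TGANTCA, which reads the same on both strands. The LAMA3 window lies at a start inside the gene, which spans 23689443 to 23956222. LAMB3 has several listed starts, of which the window with the motif is shown; ITGA5 is at chr12:54419217-54419516 on the minus strand, LAMA3 at chr18:23872770-23873069 on the plus strand and LAMB3 at chr1:209651325-209651624 on the minus strand.
ITGA5: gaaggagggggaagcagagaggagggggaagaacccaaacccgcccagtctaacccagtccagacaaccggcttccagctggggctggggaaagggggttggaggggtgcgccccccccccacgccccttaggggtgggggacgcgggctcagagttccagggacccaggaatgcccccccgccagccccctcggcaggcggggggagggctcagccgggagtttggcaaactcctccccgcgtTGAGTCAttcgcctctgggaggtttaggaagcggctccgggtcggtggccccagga
LAMA3: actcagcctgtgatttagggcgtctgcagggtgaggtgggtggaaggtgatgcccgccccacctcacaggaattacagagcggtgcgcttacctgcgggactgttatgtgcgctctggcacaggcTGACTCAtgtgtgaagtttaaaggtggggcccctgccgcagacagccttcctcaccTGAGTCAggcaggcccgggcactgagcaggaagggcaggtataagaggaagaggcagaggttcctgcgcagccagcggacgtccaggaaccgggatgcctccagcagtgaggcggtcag
LAMB3: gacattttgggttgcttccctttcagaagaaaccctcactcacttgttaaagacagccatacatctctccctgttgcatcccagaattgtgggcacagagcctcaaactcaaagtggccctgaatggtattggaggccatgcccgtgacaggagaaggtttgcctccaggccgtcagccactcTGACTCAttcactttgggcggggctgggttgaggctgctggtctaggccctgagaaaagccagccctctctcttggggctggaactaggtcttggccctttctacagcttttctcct
Counted from the start as 0, the motif began at -6 in ITGA5, at -125 and -69 in LAMA3 and at -67 in LAMB3. These were the only 3 of the 25 subunits with the motif in a window, and 9.37% of 27305 genes with a window had it in at least 1. Also searched, on both strands, were the GC box GGGCGG (13 of the subunits; 48.3% of all genes), the E box CAGGTG (7; 24.07%), the TEAD motif CATTCC (4; 16.73%), the TATA box TATAAA (1; 13.99%) and the CArG box (1; 1.6%). In LAMA3 the E box overlapped the AP-1 match at -69, and no other searched motif overlapped an AP-1 match shown. A match gives the letters only; binding was not measured.

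Complexes were counted where every subunit transcript reached 10 CPM, for 24 known integrin pairs and 13 known laminin trimers. None of these trimers contains LAMB3, so the counts are not a full list of the trimers a line could make. Both transcripts were present for 5 pairs in BT-474-like cells and 6 in MDA-MB-453-like cells, against 7 in MDA-MB-231-like cells, 10 in HCC38-like cells, 9 in MDA-MB-436-like cells and 9 in Hs578T-like cells. The collagen receptor ITGA2-ITGB1, the laminin receptor ITGA3-ITGB1 and the vitronectin receptors ITGAV-ITGB1 and ITGAV-ITGB5 were counted in all 6 groups. ITGA6-ITGB1 was counted in all groups but the Hs578T-like, and the hemidesmosome pair ITGA6-ITGB4 in the MDA-MB-453-like, MDA-MB-231-like, HCC38-like and MDA-MB-436-like groups. The MDA-MB-436-like group passed narrowly there, with ITGB4 at 10.2 CPM (interval 9.48 to 10.9), and under TMM or median-of-ratios scaling it fell short, which left 8 pairs in that group. The BT-474-like group missed with 7.58 CPM (6.94 to 8.26).

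The fibronectin receptor ITGA5-ITGB1 was counted in all 4 groups that are not luminal and in neither luminal group. ITGA4-ITGB1 was counted in the HCC38-like, MDA-MB-436-like and Hs578T-like groups, all of 1 capture. The Hs578T-like group was the only one with ITGA1-ITGB1, ITGA11-ITGB1 and ITGA8-ITGB1; it had 3 collagen pairs, against 1 in each other group, and 1 laminin pair, against 2 in BT-474-like cells and 3 in each of the others. ITGAV-ITGB6 was counted in HCC38-like cells alone, and ITGAV-ITGB8 there and in MDA-MB-436-like cells. The HCC38-like group thus had 4 of the ITGAV pairs considered, and the luminal, MDA-MB-231-like and Hs578T-like groups had ITGAV with ITGB1 and ITGB5 only.

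Laminin trimers numbered 1 in BT-474-like cells and 0 in MDA-MB-453-like cells, against 2 in MDA-MB-231-like cells, 3 in HCC38-like cells, 4 in MDA-MB-436-like cells and 2 in Hs578T-like cells. Laminin-511 was counted in every group but the MDA-MB-453-like, where LAMB1 (3.95 CPM) and LAMC1 (4.63 CPM) were short. Laminin-521 was counted in the MDA-MB-231-like, MDA-MB-436-like and Hs578T-like groups. Laminin-111 and laminin-121 were counted in MDA-MB-436-like cells alone, and laminin-311 and laminin-411 in HCC38-like cells alone. Several counts rest on levels close to 10 CPM. LAMA5 was at 10.5 CPM in BT-474-like cells (interval 9.80 to 11.3) and at 10.7 CPM in Hs578T-like cells (9.99 to 11.5). For the MDA-MB-231-like group, laminin-311 failed on LAMA3 at 8.79 CPM (8.16 to 9.45). At a minimum of 20 CPM the counts of trimers were 0 in all groups but the MDA-MB-436-like, where it was 1.

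**Figure D2:**
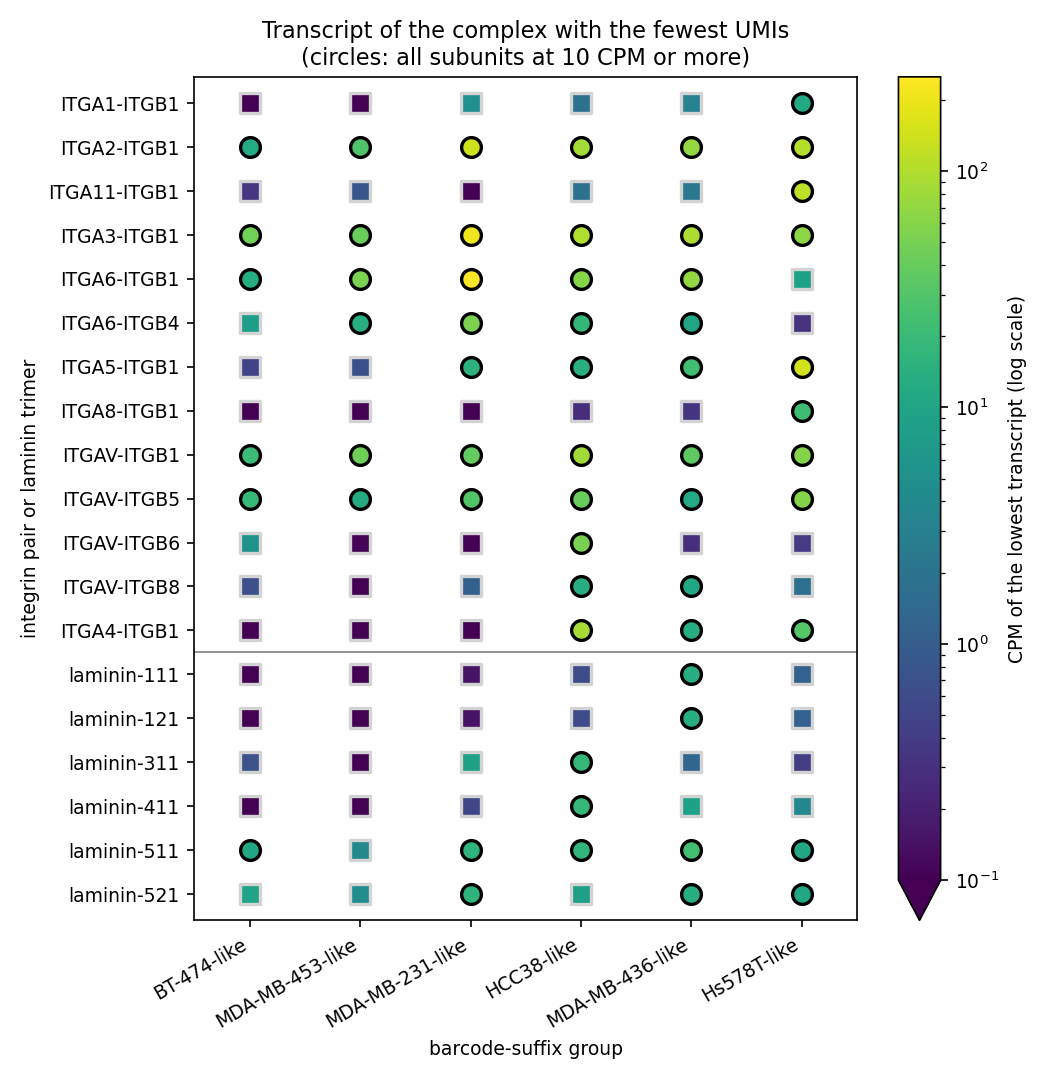
Integrin pairs (above the line) and laminin trimers (below) counted in at least 1 group, by barcode-suffix group; the colour is the CPM of the least abundant transcript of the complex on a log scale, and circles mark complexes with every transcript at 10 CPM or more. The Hs578T-like group lacks circles at both ITGA6 pairs and is the only group with circles at the ITGA1, ITGA11 and ITGA8 pairs.

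Subunits that mark 1 line were sought by setting the highest group against the next on the scale of CPM + 1. At least 4-fold above the next were 5 of the 22 measured subunits, beside 6.32% of all measured genes. They were ITGA5, ITGA8 and ITGA11 in Hs578T-like cells, ITGB6 in HCC38-like cells and LAMA1 in MDA-MB-436-like cells. ITGA5, ITGA11 and ITGB6 were also at 50 CPM or more, beside 2.55% of all measured genes that passed both limits. ITGA8, ITGA11, ITGB6 and LAMA1 counted as measured through 1 group alone, so a difference was built into the filter. With a pseudocount of 5 CPM 4 subunits passed. None of the 5 was in the luminal groups or the MDA-MB-231-like group. ITGA2 (136 against 105 CPM), ITGAE (137 against 114 CPM) and ITGB1 (902 against 859 CPM) had ratios of the highest group to the next of 1.30 (1.26 to 1.34), 1.20 (1.16 to 1.23) and 1.05 (1.04 to 1.06), which exceed counting error but have no measure of the spread between cultures.

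The luminal lines were set against the other 4 lines as the mean log2(CPM + 1) of the 2 luminal groups minus that of the others. At least 2-fold lower in the luminal groups were 16 of the 22 measured subunits, beside 20.8% of all measured genes, and 0 were at least 2-fold higher, beside 12.0%. The median log2 difference was -1.82 for the subunits and -0.17 for all measured genes. Both luminal groups were below all of the other 4 for 13 subunits (background 19.4%). Because a gene needed 10 CPM in only 1 group, a subunit measured through 1 of the other groups alone was more apt to come out lower. The 6 subunits at 10 CPM or more in every group had differences of -2.35 (ITGA2), -2.00 (ITGB1), -1.27 (ITGA3), -1.14 (ITGB5), -0.75 (ITGAV) and -0.15 (ITGAE).

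The widest deficits were those of ITGA5, at -4.28, with means of 0.58 CPM in the luminal groups and 50.1 CPM in the other 4, and of ITGA4, at -3.83. The value of ITGA4, at 0 UMIs in both luminal groups, depends on the pseudocount. LAMB3 followed at -2.97 (1.71 against 32.8 CPM), LAMA4 at -2.67 and LAMC1 at -2.65 (9.77 against 66.5 CPM). The integrins had 10 of 14 and the laminins 6 of 8 at least 2-fold lower. At the other end stood ITGB4 at 0.02 and LAMB2 at -0.04, with ITGAE at -0.15. The value of ITGB4 does not show equal levels, as its mean was 10.6 CPM in the luminal groups and 20.3 CPM in the other 4. Among those 4 it ran from 0.31 CPM in Hs578T-like cells to 53.0 CPM in MDA-MB-231-like cells. LAMB2 changed sign, to 0.08 under TMM scaling and 0.06 under median-of-ratios scaling. These scalings moved the median of all measured genes up by 0.13 and 0.11. The count of 16 was also 16 in cells with at most 10% mitochondrial UMIs, which left 210 cells of the BT-474-like group and 1765 of the MDA-MB-453-like group.

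Both luminal lines were in 1 capture, so luminal type and capture cannot be told apart for the 3 lines of the other capture. Against the MDA-MB-231-like group alone, from the same capture, 10 subunits were at least 2-fold lower in the luminal groups (background 19.9%) and 1 was higher (14.9%), with a median of -0.87 beside -0.09 for all measured genes. Among them, LAMB3 was at -4.91, ITGA5 at -3.37, LAMA3 and ITGA2 at -2.83, ITGB1 at -2.41, LAMC1 at -2.33 and ITGB4 at -2.27. The 1 higher subunit was ITGB6 at 1.34, from 5.35 CPM in BT-474-like cells and 0.11 CPM in MDA-MB-453-like cells, against 0.05 CPM in MDA-MB-231-like cells. ITGA4, LAMA4, ITGA8, LAMA1 and ITGA11 were at 0.52 CPM or less in MDA-MB-231-like cells and at least 2-fold lower in the first comparison only. The same was true of ITGB5, at -1.14 in the first comparison and -0.94 against the MDA-MB-231-like group, and of ITGB8, at -2.05 and -0.64. These 2 were above 0.52 CPM in MDA-MB-231-like cells. ITGA11 changed sign, with -1.90 against the other 4 groups and 0.57 against the MDA-MB-231-like group.

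**Figure D3:**
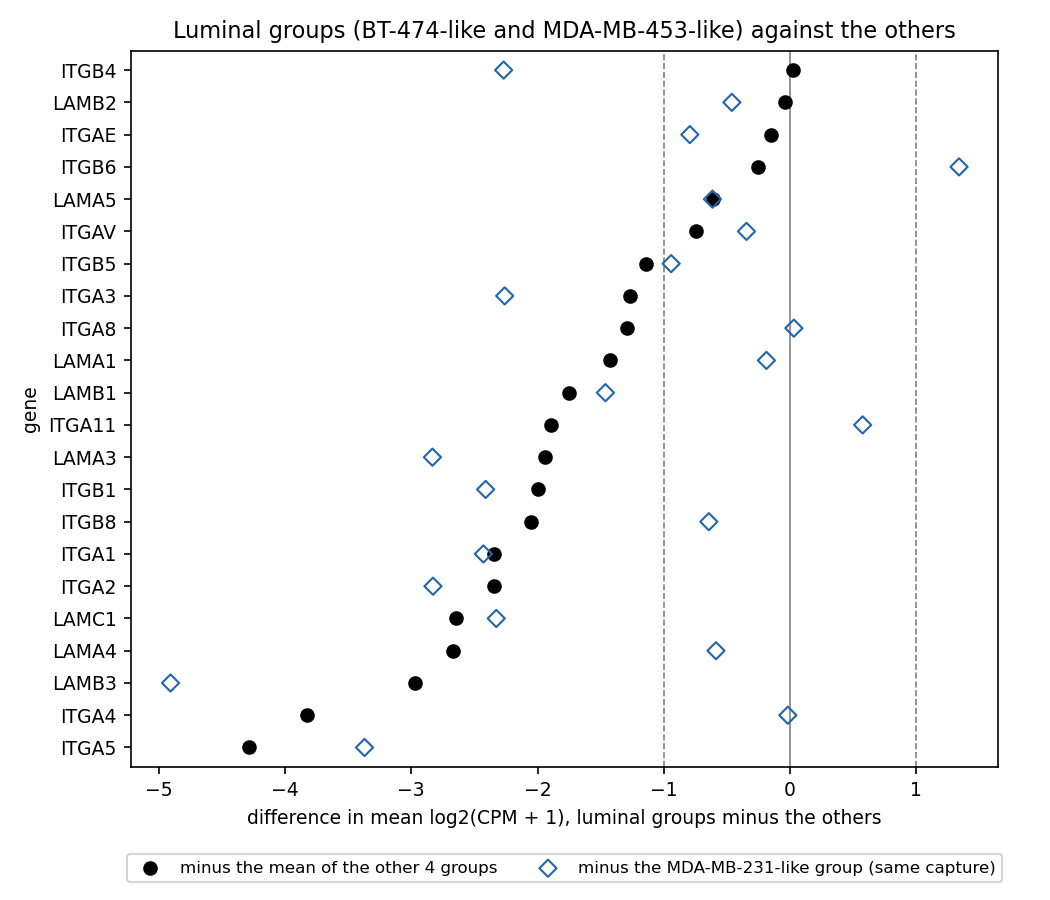
Difference in mean log2(CPM + 1) for each measured subunit (rows), as the luminal groups minus the other 4 groups (filled circles) and minus the MDA-MB-231-like group of the same capture (open diamonds); dashed lines mark 2-fold. Filled circles lie at or left of 0.02, and ITGB6 is the one open diamond beyond 2-fold on the right.

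Genes that work with the subunits were described from 3 lists, chosen with earlier results of these data known. As with the subunits, a listed gene measured through 1 of the other groups alone was more apt to come out lower in the luminal groups. The list of integrin adaptors, which couple the receptors to actin, also held regulators and surface partners, such as SHARPIN, CD151 and CD47. Of its 20 measured genes, 13 were at least 2-fold lower in the luminal groups (background 20.8%) and 0 higher (12.0%), with a median log2 difference of -1.23. Against the MDA-MB-231-like group of the same capture, 13 were lower and 2 higher (backgrounds 19.9% and 14.9%). FERMT1 and LIMS2 had the lowest values. FERMT1, which encodes kindlin-1, an activator of beta chains in epithelia, was at a mean of 0.39 CPM in the luminal groups, against 27.2 CPM in the other 4 (-3.79), and LIMS2, a partner of integrin-linked kinase, at 0.16 against 11.7 CPM (-2.87). TLN2, a talin, and SHARPIN, which holds integrins inactive, had the highest values, at 0.48 and 0.33, both under 2-fold.

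Of 11 measured basement membrane partners and other laminin receptors, 6 were lower and 1 was higher, with a median of -1.53, beside the same backgrounds of 20.8% and 12.0%. Against the MDA-MB-231-like group 6 were lower and 2 higher. COL4A1 and COL4A2, the chains of the commonest type IV collagen, were at means of 0.14 and 1.56 CPM in the luminal groups, against 66.1 and 72.2 CPM in the other 4. BCAM, the Lutheran receptor for LAMA5, was the higher one, at 58.7 against 24.7 CPM (1.82), although the HCC38-like group, at 71.0 CPM, was level with the BT-474-like group, at 71.1 CPM. SDC1, a heparan sulfate proteoglycan of epithelia, was at 0.88. Of 15 measured integrin ligands 11 were lower and 3 higher, with a median of -3.22, beside the same backgrounds. Among these ligands, COL1A1 and COL3A1 were also markers that named the Hs578T-like group, and CDH1 one that named the HCC38-like group. Their high levels in those groups were thus part of the naming. COL3A1 and SPP1, at 0 CPM in the luminal groups, counted as measured through the other groups only, so their deficit was built into the filter. Against the MDA-MB-231-like group the balance was closer, with 8 lower and 5 higher and a median of -1.86, beside 19.9% and 14.9% of all measured genes. COL1A1, a chain of type I collagen, was at -1.13 against the other 4 groups and at 2.58 against the MDA-MB-231-like group. FN1, which encodes fibronectin, the ligand of ITGA5-ITGB1, was at 2.03 CPM in BT-474-like cells and 1.59 CPM in MDA-MB-453-like cells, against 29.9, 61.0, 35.7 and 1296 CPM in the MDA-MB-231-like, HCC38-like, MDA-MB-436-like and Hs578T-like groups. COL1A2, the other chain of type I collagen, was at 0.07 and 0.11 CPM in the luminal groups and at 671 CPM in Hs578T-like cells. TGFB3, whose latent form binds ITGAV integrins (35.7 against 1.19 CPM), and CDH1 (112 against 24.4 CPM), which encodes E-cadherin, the ligand of ITGAE-ITGB7, had the highest luminal values, at 3.87 and 3.57, and the third higher ligand was NPNT, at 1.17. CDH1 did not separate the groups, with 204 CPM in BT-474-like cells and 19.5 CPM in MDA-MB-453-like cells, against 93.8 CPM in HCC38-like cells and 2.35 CPM or less in the other 3.

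The spread between cells was measured after drawing 10000 UMIs from each cell at random, which left out 278 shallower cells, 13 to 92 per group. Spread is given as the variance over the mean of the UMIs per cell, divided by the median of the same ratio over genes of the group with a mean within 1.5-fold, so 1 is the usual spread at that level. Over the subunits with a mean of at least 0.1 UMI per cell, the median relative spread was 1.03 in both luminal groups, against 1.09 in MDA-MB-231-like cells, 1.14 in HCC38-like cells, 1.04 in MDA-MB-436-like cells and 1.09 in Hs578T-like cells. The highest value was 1.06 in BT-474-like cells (ITGB5) and 1.08 in MDA-MB-453-like cells (ITGB4). Below a mean of 0.1 UMI, ITGB6 in BT-474-like cells, at 0.062 UMI per cell, had a relative spread of 1.40.

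ITGA2 had the widest relative spread of the subunits in all 4 other groups. It was 2.62 in HCC38-like cells, 2.21 in Hs578T-like cells, 1.78 in MDA-MB-436-like cells and 1.75 in MDA-MB-231-like cells, beside 0.99 in BT-474-like cells and 1.03 in MDA-MB-453-like cells. The ratio grows with the mean for the same unevenness of level, and ITGA2 averaged 0.126 and 0.285 UMIs per cell in the luminal groups, against 0.685 to 1.39 in the other 4. The same holds between subunits of 1 group, so the order of relative spreads is not an order of unevenness. Between 96.3% and 98.9% of genes of like mean in those 4 groups had a lower ratio of variance to mean. In MDA-MB-231-like cells this share was 96.3% for ITGA2 and 96.8% for LAMB3, so ITGA2 did not lead there by this measure. An ITGA2 UMI was found in 42.2% of HCC38-like cells (40.2 to 44.2), where a Poisson distribution of the same mean gives 61.5%, and in 49.0% of Hs578T-like cells, where it gives 65.8%. The shares were 39.9% of MDA-MB-436-like cells, where it gives 49.6%, and 62.7% of MDA-MB-231-like cells, where it gives 75.2%. More cells than Poisson therefore had none, and more had 4 or more. In the luminal groups 11.7% of BT-474-like and 24.1% of MDA-MB-453-like cells had an ITGA2 UMI, close to the Poisson shares of 11.9% and 24.8%. Without thinning the shares were 28.9% and 43.3% in those luminal groups, against 83.9%, 67.1%, 68.6% and 77.8% in the MDA-MB-231-like, HCC38-like, MDA-MB-436-like and Hs578T-like groups.

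**Figure D4:**
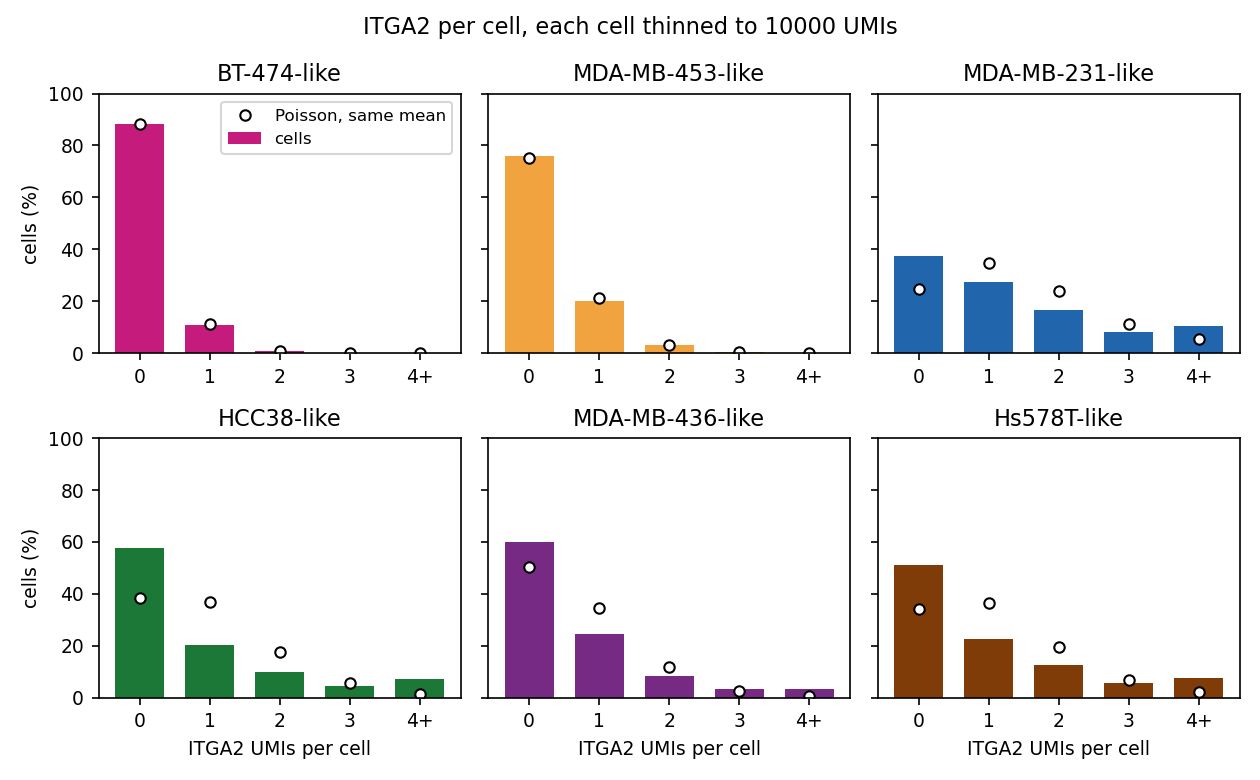
Share of cells (percent) with 0, 1, 2, 3 or at least 4 ITGA2 UMIs after thinning each cell to 10000 UMIs, in the 6 barcode-suffix groups (bars), with the Poisson distribution of the same mean (circles). In the 4 groups that are not luminal the bars at 0 and at 4 or more stand above the circles, and in the luminal groups they meet them.

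Depth and mitochondrial share were compared between cells with and without ITGA2. In the HCC38-like group, ITGA2 averaged 0.783 UMIs in cells above the median depth and 1.13 UMIs in cells below it, after thinning, and in Hs578T-like cells 1.03 and 1.11 UMIs. The median mitochondrial share was 6.01% in HCC38-like cells with an ITGA2 UMI and 5.86% in those without, and 5.94% and 5.80% in Hs578T-like cells. The part of depth in the spread was not tested. In cells with at most 10% mitochondrial UMIs, the relative spread of ITGA2 was 2.51 in HCC38-like cells and 2.09 in Hs578T-like cells. MDA-MB-231-like cells with a UMI of ESAM, an adhesion gene of endothelial junctions and a marker that named this group, averaged 2.15 ITGA2 UMIs (461 cells), against 1.25 in those without (2390 cells), and LAMB3 averaged 1.11 and 0.732 in the same split, ITGB4 0.625 and 0.510, ITGA6 2.52 and 2.48, and ITGA3 2.11 and 2.18.

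After ITGA2, the widest subunits differed between the groups. In the HCC38-like group ITGB6 was at 1.54 and LAMA3 at 1.33, in MDA-MB-231-like cells LAMB3 at 1.46 and ITGB4 at 1.21, and in MDA-MB-436-like cells ITGB4 at 1.32 and ITGB8 at 1.19. In the Hs578T-like group ITGA5 was at 1.32 and ITGAV at 1.20. An ITGB6 UMI was found in 35.2% of HCC38-like cells (33.3 to 37.2), against 0.50% of MDA-MB-436-like and 0.54% of Hs578T-like cells of the same capture, all at 10000 UMIs per cell, and the unthinned shares were 63.0%, 1.01% and 1.55%. An ITGA5 UMI was found in 68.6% of Hs578T-like cells, where a Poisson distribution gives 76.2%. ITGB1, with a relative spread of 1.04 to 1.18 in all groups, was found in 99.8% of Hs578T-like and 66.6% of MDA-MB-453-like cells.

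**Figure D5:**
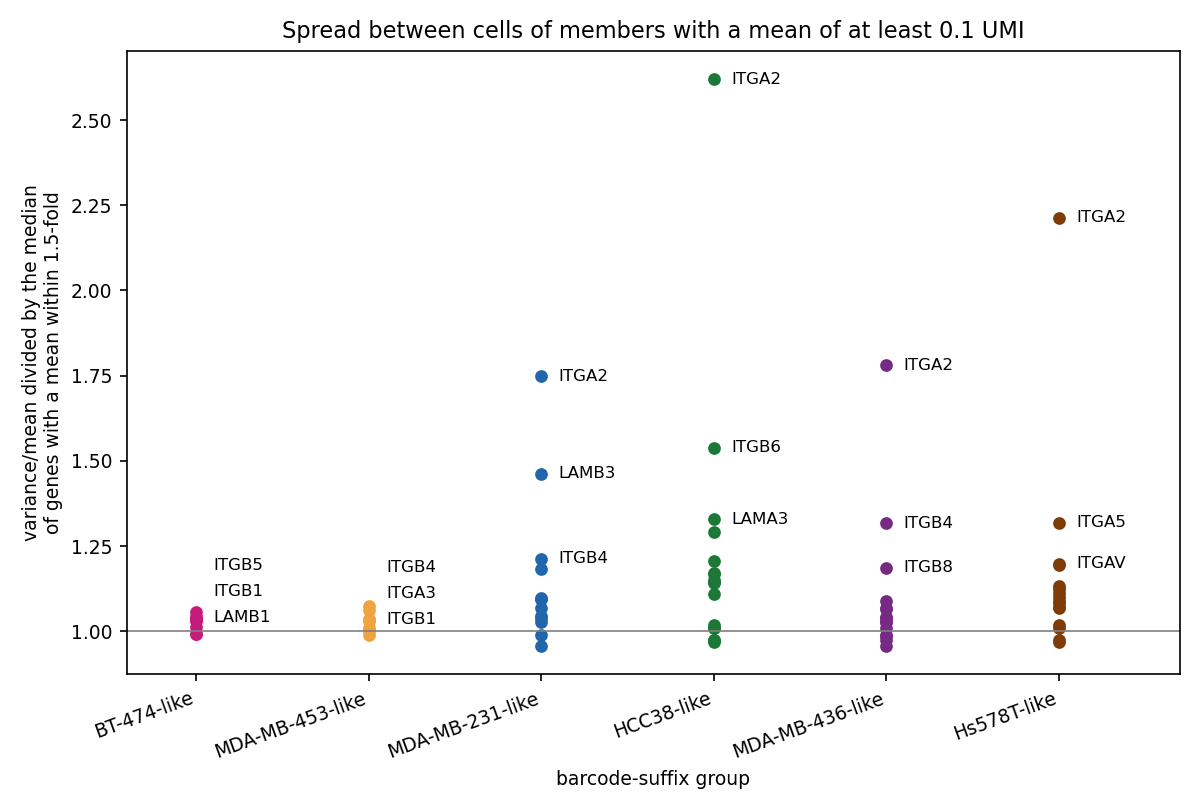
Relative spread between cells (variance over mean at 10000 UMIs per cell, divided by the median of genes with a mean within 1.5-fold) of each subunit with a mean of at least 0.1 UMI, by barcode-suffix group; the 3 widest per group are named. ITGA2 is the top point in the 4 groups that are not luminal, from 1.75 to 2.62.

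The transcripts of a complex were also looked for in the same cells. The median number of the list's alpha chains with a UMI per cell at 10000 UMIs was 1 in both luminal groups, against 3 in MDA-MB-231-like cells, 3 in HCC38-like cells, 2 in MDA-MB-436-like cells and 4 in Hs578T-like cells. No laminin UMI was found in 59.9% of BT-474-like and 63.4% of MDA-MB-453-like cells, against 16.6%, 23.4%, 21.8% and 11.2% of MDA-MB-231-like, HCC38-like, MDA-MB-436-like and Hs578T-like cells. Both transcripts of ITGA11-ITGB1 were found in 64.7% of Hs578T-like cells (62.5 to 66.9) and those of ITGA5-ITGB1 in 68.5% (66.3 to 70.6). The products of the single shares are 64.7% and 68.5%. ITGB1 was found in 99.8% of these cells, so the pair shares were set by the alpha chain and say nothing of pairing. Those of ITGAV-ITGB6 were found in 18.1% of HCC38-like cells (16.6 to 19.7), where the product of the single shares is 18.0%. Those of ITGA6-ITGB4 were found in 8.11% of HCC38-like cells (7.04 to 9.29), where the product is 6.49%. In MDA-MB-436-like cells they were found in 4.92% (4.05 to 5.905), where it is 3.91%. In the MDA-MB-453-like and MDA-MB-231-like groups the interval for ITGA6-ITGB4 included the product. All 3 transcripts of laminin-311 were found in 1.02% of HCC38-like cells (0.654 to 1.51), 24 of 2354, where the product is 0.77%. Those of laminin-511 were found in 0.51% of HCC38-like cells (0.264 to 0.889), where it is 0.62%. Trimers of low transcripts were seen whole in few cells at this depth, and a missing UMI does not show that a cell lacks the transcript. Pearson correlations between subunits over cells of 1 group ranged from -0.06 to 0.19, too weak in sparse counts to rank pairs by.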

How the data were processed

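Per the file header, the authors deposited raw UMI counts per gene and cell barcode from Cell Ranger 6.1.2, and the submitters' processing notes name GRCh38; settings of cell calling, oligo assignment and strand are not stated there. From these deposited counts, barcodes with at most 20% mitochondrial UMIs, at least 1000 UMIs and 500 genes were kept. Mixed cells were removed, those whose UMIs of the top 50 genes specific to a capture mate (at 50 CPM or more) reached 25% of that mate's own median. Doublets of 1 line cannot be seen in this way and were kept. Counts were summed per barcode suffix and scaled to CPM, with log2 ratios at a pseudocount of 1 CPM. Intervals are exact (Poisson, Clopper-Pearson or conditional binomial). UMIs, not reads, were counted, and p-values were not computed. Some results are not reported here. Thinning used a seed of 1. No step was a test. Fold comparisons, thinning, spread and intervals were tried on simulated data. The removal of mixed cells, group naming, counts of complexes and motif search were not. Gene positions come from GENCODE and promoters from RefSeq. Named were all subunits, the 3 widest in spread per group, and the 2 list genes with the largest luminal difference in each direction; CD68, COL1A1, NPNT and PTPRC were named after their values were seen. The subunits, lists and markers were chosen with earlier results of these data known. Alternatives changed the mitochondrial limit, mixed cells, scaling (edgeR TMM, median of ratios), CPM minimum, pseudocount, gene filter and thinning. Python 3.11.15, numpy 2.4.6, scipy 1.17.1, pandas 2.3.3, R 4.3.3 and edgeR 4.0.16 were used.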

Additional observations from a re-analysis of the deposited data

How the results depend on the processing

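Counts of complexes depended on the CPM minimum more than on any other choice tried. At 20 CPM in place of 10, integrin pairs numbered 2 in BT-474-like cells and 5 in MDA-MB-436-like cells, and laminin trimers 0 in the BT-474-like, MDA-MB-231-like, HCC38-like and Hs578T-like groups and 1 in MDA-MB-436-like cells. At 5 CPM, trimers numbered 2 in BT-474-like cells, 4 in MDA-MB-231-like cells and 8 in HCC38-like cells. The BT-474-like group had 0 trimers in cells with at most 10% mitochondrial UMIs and 2 with no such limit, with TMM factors and with median-of-ratios factors. The numbers of subunits 4-fold above the next group (4 to 5) and 2-fold lower in the luminal groups (11 to 17, with 0 higher) stayed within 1.5 times the reported count under every alternative run for them; the lowest value of each was that with a pseudocount of 5 CPM. No difference of the highest group from the next changed sign. Its size was rated as changed for 11 of the 22 measured subunits with TMM factors and for 15 with median-of-ratios factors. With a pseudocount of 5 CPM it was rated as changed for 10. Thinning to 5000 UMIs lowered the relative spread of ITGA2 to 1.40, 1.92, 1.37 and 1.52 in the MDA-MB-231-like, HCC38-like, MDA-MB-436-like and Hs578T-like groups. All 18 named spreads moved at that depth, most but not all downward. ITGB5 in BT-474-like cells went from 1.06 to 0.98 and LAMA3 in HCC38-like cells from 1.33 to 1.36. No paired analysis was possible because each line was 1 culture, and for the same reason no replicate could be left out. Depth limits trimers and low transcripts in single cells.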
